A study of Mus musculus with 24 samples.

Results

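The genes described here are 8 regulators of the PAX, sine oculis homeobox and EYA families, namely Pax7, Pax3, Six2, Six4, Six5, Eya1, Eya3 and Eya4, out of 56941 genes listed in the data. They were chosen by name as regulators of muscle precursors, with earlier results of the same libraries in view, so the levels and fold changes of these genes are given as a description and no p-value is attached to any of them. Of the 8 genes, 6 had enough counts to be tested among 13315 genes, and Pax3 and Six2 had a count of 0 in all 24 libraries.

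The RNA came from sheets of C2C12 muscle, a mouse myoblast line that fuses into contractile myotubes. All tissues, controls included, carried ChR2::tdTomato, a channel opened by blue light and tagged with a red fluorescent protein, and all were grown on fibrin and differentiated for about 2 weeks in medium with inactivated horse serum and IGF-1. The control tissues received no light stimulation, and the other tissues were stimulated every day for 60 min at 1 Hz, 4 Hz or 10 Hz, with 6 libraries per condition. The tissues hold 1 cell line without nerve, vessel or immune cells, and muscle sheets of this kind also twitch without light, so the controls are not motionless tissue. The label calls the cells myoblasts, whereas myotube genes such as Ckm, the muscle creatine kinase, were at 363 ± 48.3 TPM (SD, n = 6) in the controls.

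PAX proteins are transcription factors with a paired domain, and PAX7 and PAX3 mark muscle precursors, where PAX7 maintains the satellite cells that repair adult muscle. Sine oculis factors are homeodomain proteins that bind MEF3 sites in muscle promoters, including that of Myog, and they need EYA proteins as partners. EYA proteins do not bind DNA themselves and carry a phosphatase domain, and with sine oculis factors they switch on myogenic regulators in the embryo and influence fibre type in the adult.

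Pax7, Eya3 and Six4 were lower in tissues stimulated at 1 and 4 Hz than in the controls, Eya1 and Six5 were higher, and Eya4 was at about the same level in all conditions. At 10 Hz, 5 of the 6 tested genes were near their control level, and Eya1 lay between its control level and its level at 1 and 4 Hz. Pax7 had the largest difference, with 33.5% of its control level at 1 Hz and 34.7% at 4 Hz, against 103% at 10 Hz.

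Libraries held between 8052369 and 18159144 estimated counts each, and the biological coefficient of variation across the tested genes was 14.8%. No pair of replicates agreed within sampling noise. On the first principal component, which held 21.7% of the variance, the 4 Hz libraries and 5 of the 1 Hz libraries had positive scores and the control and 10 Hz libraries negative ones. Only 1 Hz replicate 5 departed from this, scoring -4.92, within the span of the controls. Without it, 4 of the genes met the criteria for a called gene (adjusted p under 0.05 and absolute log2(fold change) over 0.5 in edgeR) at 1 Hz instead of 5, while over all genes 1235 of 13401 were called higher and 1201 lower, against 958 and 1030 of 13315 with it. In that fit the log2(fold change) was -1.62 for Pax7, -0.46 for Six4, 0.81 for Six5, 0.84 for Eya1, -0.92 for Eya3 and -0.09 for Eya4. Bulk RNA cannot tell fewer cells that express a gene from less RNA per cell.

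Sequences upstream of 4 of these genes are shown because 3 of the genes that were lower together and 1 that was higher have a promoter window in the RefSeq table, build GRCm38.p6. Each window holds the 250 bases before the annotated start, on the gene's strand from 5′ to 3′, and capitals mark every match, on either strand, to the letters searched. These were the E-box CANNTG of bHLH factors, the MEF3 site TCAGGTTTC of sine oculis factors, the GC box GGGCGG, the CCAAT box CCAAT, the AP-1 site TGANTCA and the cyclic AMP element TGACGTCA, of which none overlap in these windows. The windows lie at chr4:139832969-139833218 on the minus strand for Pax7, chr4:132638796-132639045 on the plus strand for Eya3, chr12:73113246-73113495 on the minus strand for Six4 and chr7:19094294-19094543 on the plus strand for Six5.
Pax7: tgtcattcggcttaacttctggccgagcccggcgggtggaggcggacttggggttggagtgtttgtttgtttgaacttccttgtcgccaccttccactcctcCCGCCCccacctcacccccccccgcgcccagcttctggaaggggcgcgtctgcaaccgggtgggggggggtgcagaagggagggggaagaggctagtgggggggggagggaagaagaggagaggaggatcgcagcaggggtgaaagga
Eya3: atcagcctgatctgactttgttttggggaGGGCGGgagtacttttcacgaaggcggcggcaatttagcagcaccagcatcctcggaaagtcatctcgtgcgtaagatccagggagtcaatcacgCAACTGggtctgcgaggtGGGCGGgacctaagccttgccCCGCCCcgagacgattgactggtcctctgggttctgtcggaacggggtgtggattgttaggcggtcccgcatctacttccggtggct
Six4: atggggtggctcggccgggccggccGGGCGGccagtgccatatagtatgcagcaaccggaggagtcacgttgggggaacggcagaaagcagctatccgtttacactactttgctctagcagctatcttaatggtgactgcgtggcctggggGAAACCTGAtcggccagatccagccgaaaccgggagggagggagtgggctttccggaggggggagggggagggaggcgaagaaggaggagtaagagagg
Six5: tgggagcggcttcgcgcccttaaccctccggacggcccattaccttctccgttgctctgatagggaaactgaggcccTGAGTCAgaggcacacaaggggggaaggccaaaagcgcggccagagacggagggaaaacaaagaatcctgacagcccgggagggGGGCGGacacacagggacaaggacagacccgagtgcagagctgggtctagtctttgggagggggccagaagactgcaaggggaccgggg

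The Six4 window holds the MEF3 letters on the strand opposite to the gene, at position -99 from the start, and 0.387% of the 32851 windows in the table hold them. The Eya3 window holds 1 E-box, at position -126, as do 66.2% of all windows in at least 1 copy, and 3 GC boxes, which 32.7% of windows hold. The Pax7 window holds 1 GC box and no E-box. In the Six5 window there is an AP-1 site at position -173, found in 6.75% of windows, and 1 GC box. The cyclic AMP element, in 1.55% of all windows, and the CCAAT box, in 33.9%, were in none of these 4 windows. The 4 windows do not share a motif other than the GC box, and these matches describe letters, not bound sites. Six4 has a second, overlapping window without the MEF3 letters. Of the 8 genes, 6 were in the table, and Eya1 and Pax3 were not.

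**Figure D1:**
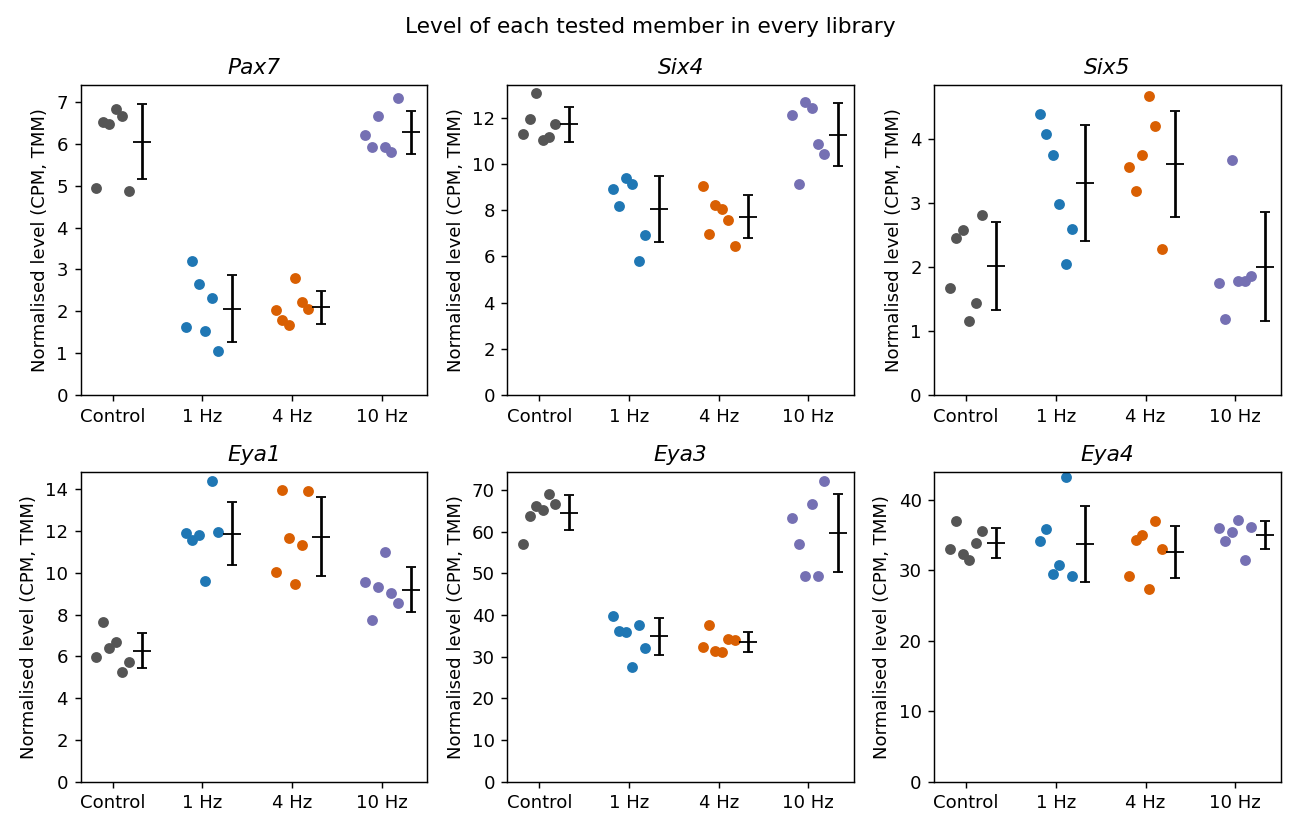
Level of each tested gene in every library, in reads per 1000000 counted (CPM) after TMM scaling on a linear axis that starts at 0. Each dot is 1 library, and the bar beside the dots is the mean with its SD (n = 6). All 1 and 4 Hz libraries of Pax7, Six4 and Eya3 lie below all controls, and those of Eya1 lie above, while Six5 and Eya4 overlap with the controls.

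Pax7 (GRCm39, chr4:139464373-139560839, minus strand) encodes the satellite cell factor. Its level ran from 4.88 to 6.83 CPM in the controls, with a median of 6.51. At 1 Hz the lowest library was at 1.06, the median at 1.97 and the highest at 3.21 CPM. At 4 Hz the values were 1.67, 2.04 and 2.79 CPM in the same order. Every library at 1 and 4 Hz was below every control. At 10 Hz the level ran from 5.81 to 7.11 CPM with a median of 6.08, so that 5 of the 6 libraries lay within the control range and 1 above it.

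The log2(fold change) of Pax7 against control was -1.58 (SE 0.181) at 1 Hz, -1.53 (SE 0.184) at 4 Hz and 0.05 (SE 0.162) at 10 Hz. These values rest on few reads. The median library held 76 estimated counts of Pax7 in the controls, 24.5 with 1 Hz stimulation, 18.5 with 4 Hz and 61.5 with 10 Hz. Counting error alone gives a coefficient of variation of 21.1% at the mean count of 1 Hz and 11.2% at that of the controls. No 31-base stretch of the Pax7 transcripts occurs in another gene.

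Pax3, the paralogue that drives migration of limb muscle precursors in the embryo, had no count in any library. The same held for Six2, a sine oculis factor best known from kidney progenitors. A count of 0 among 264848114 estimated counts over the 24 libraries allows a level of up to 0.0113 CPM, taking 3 counts as the limit and covering counting error only. Neither gene is without unique sequence, since 1.25% of the 31-base stretches of Pax3 and 1.47% of those of Six2 occur in another gene. Among Pax genes that are not among the 8, Pax5 and Pax8 passed the filter on low counts. Pax8, a thyroid and kidney factor, was at 1.81 ± 0.825 TPM (SD, n = 6) in the controls, which is close to the 1.63 ± 0.292 TPM (SD, n = 6) of Pax7 per length. At 1 Hz Pax8 was at 1.82 ± 1.02 TPM and Pax7 at 0.523 ± 0.263 TPM (SD, n = 6 each). The transcript length implied by the ratio of count to TPM ran from 947 to 2510 bases between libraries for Pax8. Its TPM thus depends on the transcripts assigned to it in each library. Pax8 overlaps Gm13415 on the opposite strand, which had a mean of 107 estimated counts per library against group means of 22.3 to 31.3 for Pax8. Pax8 had a log2(fold change) of -0.09 at 1 Hz and -0.02 at 4 Hz (edgeR, adjusted p = 0.739 and 0.930), and Pax5 had one of -0.27 and 0.20 (edgeR, adjusted p = 0.419 and 0.536).

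Six4 (chr12:73146383-73160230, minus strand) encodes a sine oculis factor that acts in muscle formation. In the controls its level ran from 11.0 to 13.1 CPM with a median of 11.5. At 1 Hz the lowest, median and highest libraries were at 5.81, 8.54 and 9.40 CPM. At 4 Hz they were at 6.46, 7.82 and 9.03 CPM. The groups did not overlap at either frequency. The 10 Hz libraries ran from 9.15 to 12.7 CPM with a median of 11.5, and 3 of them were below every control.

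The log2(fold change) of Six4 was -0.54 (SE 0.111) at 1 Hz, -0.61 (SE 0.113) at 4 Hz and -0.05 (SE 0.109) at 10 Hz. The value at 1 Hz is close to the limit of 0.5, and without 1 Hz replicate 5, the lowest of its group, it was -0.46. Six4 overlaps Mnat1 on the opposite strand, which had a mean of 501 estimated counts per library against 71.8 to 153 for Six4, and although the library kit keeps the strand of the RNA, how counting used it is not given in the sources used here.

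Six5 (chr7:18828185-18832625, plus strand) lies 438 bases after the end of Dmpk, the myotonic dystrophy kinase gene whose repeat expansion has been linked to lower SIX5. Summed over the 24 libraries it had the fewest counts of the 6 tested genes, whereas at 1 and 4 Hz Pax7 had fewer, with 135 and 120 counts summed over the 6 libraries against 218 and 200 for Six5. The control libraries ran from 1.15 to 2.82 CPM with a median of 2.06. At 1 Hz they ran from 2.06 to 4.39 CPM with a median of 3.37, and at 4 Hz from 2.28 to 4.67 with a median of 3.66. Of the 6 libraries, 4 were above every control at 1 Hz and 5 at 4 Hz, so the groups overlapped. At 10 Hz the median was 1.79 CPM, and the highest library, at 3.67 CPM, stood above all controls while the others lay within their range.

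The log2(fold change) of Six5 was 0.71 (SE 0.246) at 1 Hz, 0.84 (SE 0.247) at 4 Hz and -0.00 (SE 0.262) at 10 Hz. The median count per library was 24.5 in the controls, 36 at 1 Hz and 31 at 4 Hz, and counting error alone gives a coefficient of variation of 19.6% in the controls. The criteria for a called gene were lost at 1 Hz when any of 5 single libraries was left out, namely control replicates 4 and 5 and 1 Hz replicates 1, 2 and 3, with values from 0.56 to 0.65.

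Eya3 (chr4:132366298-132452219, plus strand) had the highest level of the 8 genes. It encodes an EYA partner and phosphatase that is expressed in many tissues. In the controls its level ran from 57.0 to 69.0 CPM with a median of 65.7. At 1 Hz the libraries ran from 27.6 to 39.9 CPM with a median of 36.0. At 4 Hz they ran from 31.2 to 37.5 CPM with a median of 33.2. The highest stimulated library was well below the lowest control at both frequencies. The 10 Hz libraries spread most, from 49.3 to 72.2 CPM with a median of 60.3, and 2 of them were below and 1 above the control range.

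The log2(fold change) of Eya3 was -0.89 (SE 0.0940) at 1 Hz, -0.95 (SE 0.0947) at 4 Hz and -0.11 (SE 0.0923) at 10 Hz. With a mean of 319 to 844 estimated counts per library, counting error was at most 5.60%, below the 11.2% biological variation fitted for this gene. Eya3 overlaps Xkr8 on the opposite strand, with a mean of 173 estimated counts per library.

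Eya1 (chr1:14239167-14380543, minus strand) encodes an EYA protein known from fast fibre gene expression. Its level ran from 5.24 to 7.64 CPM in the controls, with a median of 6.18. At 1 Hz it ran from 9.64 to 14.4 CPM with a median of 11.9, and at 4 Hz from 9.45 to 14.0 with a median of 11.5. At 10 Hz it ran from 7.72 to 11.0 CPM with a median of 9.20. All 18 stimulated libraries were above all 6 controls on this scale. The highest library was 1 Hz replicate 5.

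The log2(fold change) of Eya1 was 0.91 (SE 0.119) at 1 Hz, 0.90 (SE 0.120) at 4 Hz and 0.55 (SE 0.121) at 10 Hz. Against the 1 Hz and 4 Hz libraries, the 10 Hz libraries were lower by a log2(fold change) of -0.36 (SE 0.117) and -0.35 (SE 0.118). Eya1 was the only one of the 8 genes with a 10 Hz level outside the control range in all libraries.

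Eya4 (chr10:22978861-23226817, minus strand) encodes an EYA protein known from hearing and heart disease genes. Its median was 33.4 CPM in the controls and 32.4, 33.6 and 35.6 CPM at 1, 4 and 10 Hz, and the ranges overlapped in every comparison. The highest of all 24 libraries was 1 Hz replicate 5, at 43.2 CPM. The log2(fold change) was -0.01 (SE 0.0891), -0.06 (SE 0.0898) and 0.05 (SE 0.0892) at 1, 4 and 10 Hz. These are the smallest standard errors of the 6 genes.

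**Figure D2:**
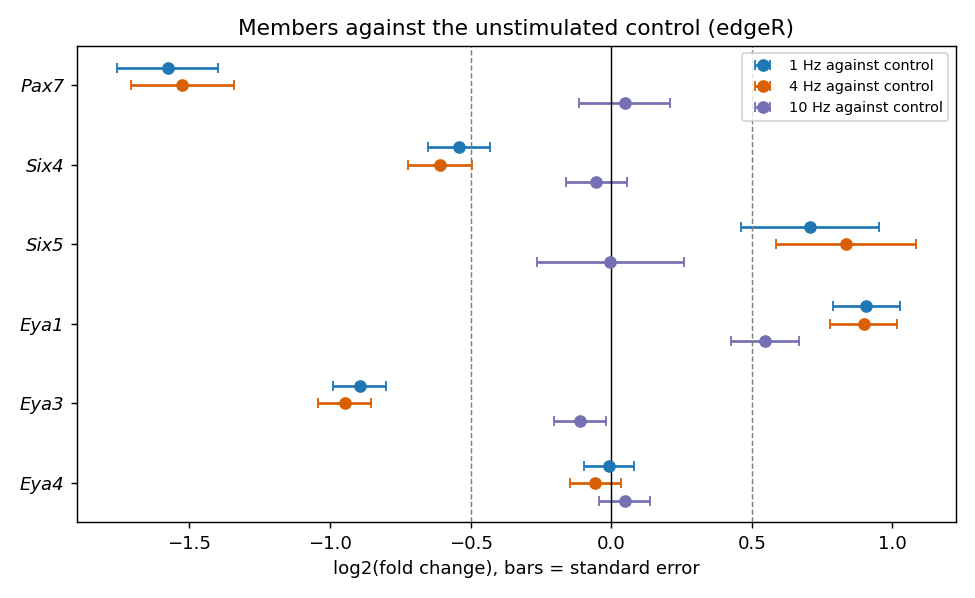
log2(fold change) of the 6 tested genes against the unstimulated control from the edgeR fit, with bars for the standard error. Dashed lines mark 0.5 in either direction. Pax7 sits near -1.58 and -1.53 at 1 and 4 Hz and near 0 at 10 Hz, and Eya1 is the only gene with a 10 Hz value past the dashed line, at 0.55.

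A gene was called when its Benjamini-Hochberg adjusted p over all tested genes was under 0.05 and its absolute log2(fold change) over 0.5 in the edgeR quasi-likelihood fit. At 1 Hz, Pax7, Eya3 and Six4 met this as lower, where 7.74% of all tested genes did, and Eya1 and Six5 as higher, where 7.19% did. The same 5 genes met it in the same directions at 4 Hz, where 12.3% of tested genes were called lower and 12.8% higher. The 1 and 4 Hz comparisons share the 6 control libraries. At 10 Hz, 0 of the 6 genes were called, and 0.0225% of all genes were called lower and 0.015% higher, with 1074 genes at an unadjusted p under 0.05. Among the 8 genes, Eya1 was called at 10 Hz with DESeq2, which called 4 of 27799 genes higher and 18 lower, and with only the control and 10 Hz libraries in the fit, which called 3 of 12867 higher and 20 lower.

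All 6 libraries lay outside the control range on the same side for Pax7, Eya3, Six4 and Eya1 at 1 and 4 Hz. This held for 14.1% of all tested genes at 1 Hz and 27.6% at 4 Hz. At 10 Hz it held for Eya1 and for 1.64% of tested genes. Since the genes were chosen with these contrasts known, nothing is read from the counts.

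**Figure D3:**
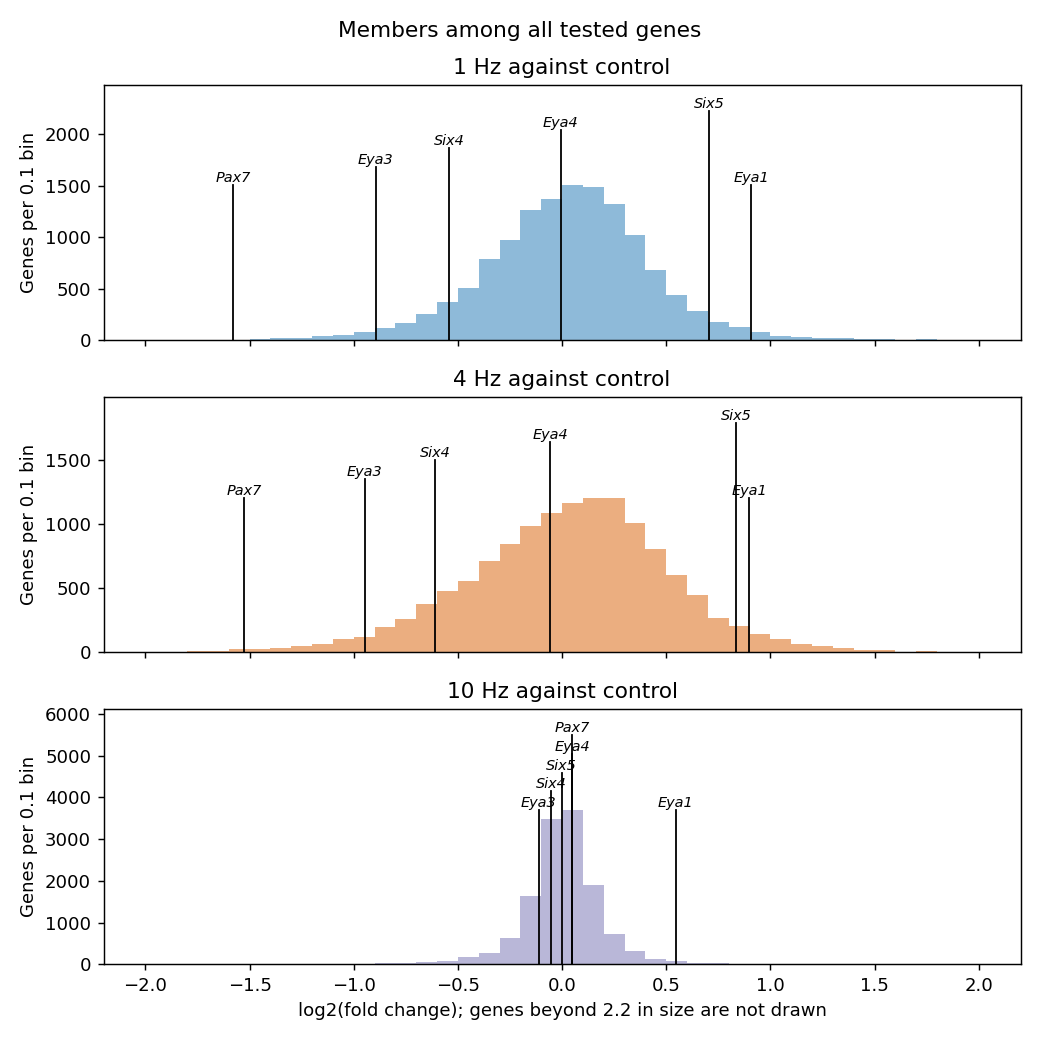
Distribution of the log2(fold change) of all 13315 tested genes in bins of 0.1, at 1, 4 and 10 Hz against control, with a vertical line for each of the 6 genes. Line heights are set for legibility and carry no value. At 1 and 4 Hz Pax7 lies in the far lower tail and Eya1 and Six5 in the upper tail, whereas at 10 Hz all but Eya1 lie in the central peak.

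Between frequencies, Pax7 and Eya3 were higher and Six5 lower at 10 Hz than at 1 Hz by the same criteria, which 10.8% of tested genes met in either direction. The call for Six5 was lost in 13 of 32 alternatives, with values from -0.93 to -0.31 over all 32. Among these were 9 that left out 1 library, namely 1 Hz replicates 1, 2, 3 and 4 and 10 Hz replicates 1, 2, 4, 5 and 6, with values from -0.72 to -0.61. Pax7 was 3.09 times and Eya3 1.72 times its 1 Hz level. Six4, with a log2(fold change) of 0.49 (SE 0.113), fell just short of the limit. Against 4 Hz, where 21.2% of genes were called, Pax7, Eya3 and Six4 were higher and Six5 lower at 10 Hz. Between 4 and 1 Hz, 0 of the 6 genes and 0.0% of all genes were called by edgeR, 0 by limma on either TPM scale and 1 gene by DESeq2, with 1465 genes at an unadjusted p under 0.05 in edgeR. The largest of these differences among the 6 genes was that of Six5, at 0.13 (SE 0.240).

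Levels can be ordered between genes only per length, so TPM was used for the order. In the controls Eya3 was highest at 26.7 ± 2.72 TPM, followed by Eya4 at 10.5 ± 0.794, Eya1 at 3.73 ± 1.17, Six4 at 2.83 ± 0.263, Pax7 at 1.63 ± 0.292 and Six5 at 1.08 ± 0.378 TPM (SD, n = 6 each). The ranges of Eya1 and Six4 overlapped, as did those of Pax7 and Six5, and the other neighbours were apart. At 1 Hz the order was Eya3 at 11.6 ± 3.08, Eya4 at 9.04 ± 2.70, Eya1 at 5.06 ± 2.41, Six4 at 1.68 ± 0.352, Six5 at 1.55 ± 0.543 and Pax7 at 0.523 ± 0.263 TPM (SD, n = 6 each). There Eya3 overlapped with Eya4, Eya4 with Eya1, and Six4 with Six5, while Pax7 had moved to the last place. The order at 4 Hz was that at 1 Hz with Six5 at 1.53 TPM just above Six4 at 1.48, and the order at 10 Hz was that of the controls.

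Within the EYA family, the ratio of Eya3 to Eya4 in TPM ran from 2.19 to 3.05 in the controls and from 1.97 to 2.56 at 10 Hz. It ran from 1.06 to 1.54 at 1 Hz and from 1.06 to 1.40 at 4 Hz, with no overlap with the other conditions. Eya3 thus made up 65.1% ± 3.69 of the summed EYA TPM in the controls, and 45.4% ± 5.29, 42.4% ± 4.33 and 62.8% ± 2.78 at 1, 4 and 10 Hz (SD, n = 6 each). The share of Eya1 was 9.09% ± 2.53 in the controls and 19.5% ± 4.82, 23.2% ± 5.93 and 10.5% ± 1.56 at 1, 4 and 10 Hz (SD, n = 6 each). The summed EYA level itself was 41.0 ± 3.34 TPM in the controls and 25.7 ± 7.32, 24.3 ± 5.18 and 40.1 ± 7.41 TPM at 1, 4 and 10 Hz (SD, n = 6 each). On log2(TPM + 1) the median of all genes was also shifted, by -0.14 at 1 Hz and -0.21 at 4 Hz. CPM, which does not divide by transcript length, gave Eya3 means of 64.6, 34.9 and 33.5 in the controls, at 1 Hz and at 4 Hz. In the same order Eya4 was at 33.9, 33.7 and 32.6 CPM, and Eya1 at 6.28, 11.9 and 11.7 CPM. Eya2 had at most 2.00 estimated counts in any library.

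Among genes of the PAX, sine oculis, EYA and DACH families outside the 8, 10 did not pass the filter and had at most 4.00 counts in any library, 3 of them 0 in all.

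**Figure D4:**
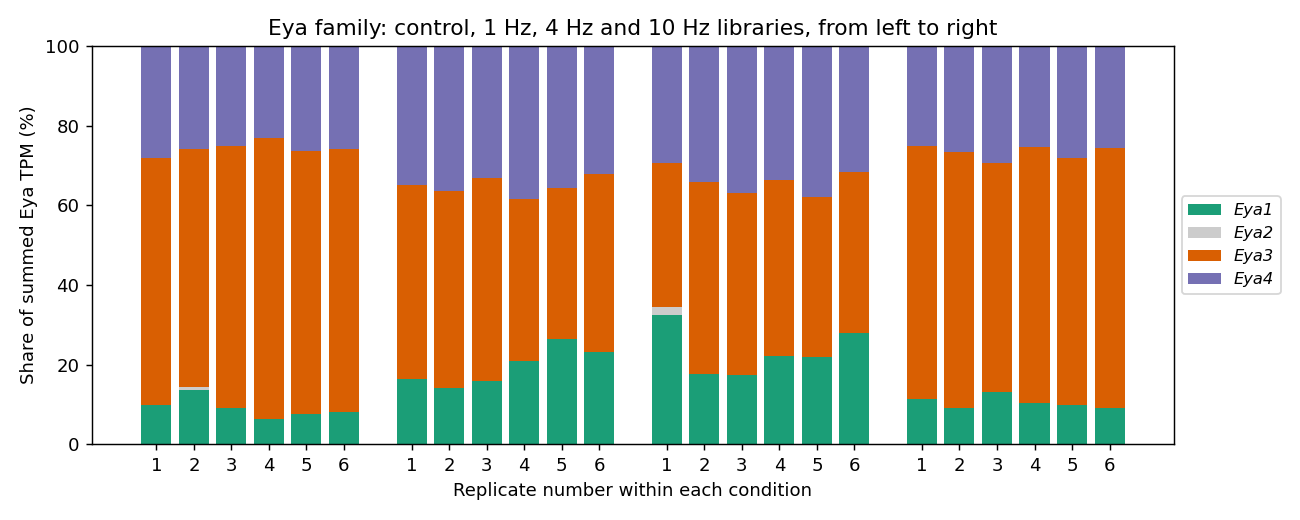
Share of each EYA gene in the summed TPM of the family, in percent, with 1 bar per library. Control, 1 Hz, 4 Hz and 10 Hz libraries stand in blocks of 6 from left to right, numbered by replicate. Eya3 holds 59.9% to 70.5% of the EYA sum in the controls and 37.8% to 51.1% at 1 Hz.

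At 1 and 4 Hz the calls on the 2 scales differ only for the genes that were higher. On log2(TPM + 1), the median of all genes itself was shifted by -0.14, -0.21 and -0.01 for 1, 4 and 10 Hz, where the edgeR fit on counts gave 0.04, 0.06 and 0.01. The balance of calls over all genes moved with it, since limma on this scale called 198 of 13422 genes higher and 1710 lower at 1 Hz, and 333 higher and 3166 lower at 4 Hz, where edgeR on counts called 958 of 13315 higher and 1030 lower at 1 Hz, and 1709 higher and 1635 lower at 4 Hz. On that scale limma gave Eya1 0.32 (SE 0.200) at 1 Hz and 0.47 (SE 0.200) at 4 Hz, and Six5 0.29 (SE 0.160) at both, and neither gene met the criteria. Relative to the median shift, Eya1 was at 0.46 and 0.68 and Six5 at 0.43 and 0.50. Pax7, Eya3 and Six4 met the criteria as lower at 1 and 4 Hz on this scale as well. Eya3 was at -1.17 and -1.31, and relative to the shift Six4 was at -0.38 and -0.42. Eya4 was at -0.24 and -0.34, or -0.09 and -0.13 relative to the shift. For genes near 1 TPM the size depends on the value added. Pax7 was at -0.80 and -0.86 here, and at -1.58 and -1.67 on log2(TPM + 0.1). On log2(TPM + 0.1) Six5 was at 0.49 and 0.51, or 0.65 and 0.75 relative to that scale's shift.

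TPM divides by the length of the transcripts that the quantification assigned to a gene in each library. The length implied by the ratio of count to TPM varied for Eya1, which has 34 annotated transcripts, from 1573 to 4361 bases between libraries. Its median was 2647 bases in the controls and 3474, 2743 and 3333 bases at 1, 4 and 10 Hz. For Six5 it stayed between 2942 and 2952 bases, and for Six4 between 6508 and 6545. For Eya3 the median was 3855 bases in the controls and 4202, 4382 and 3706 bases at 1, 4 and 10 Hz, so the implied length was greater at 1 and 4 Hz where the gene was lower. In TPM, Eya1 ran from 2.61 to 6.01 in the controls and from 3.53 to 9.90, 3.21 to 7.89 and 2.90 to 5.08 at 1, 4 and 10 Hz, and all groups overlapped. The part of transcript choice in the Eya1 level was not tested.

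**Figure D5:**
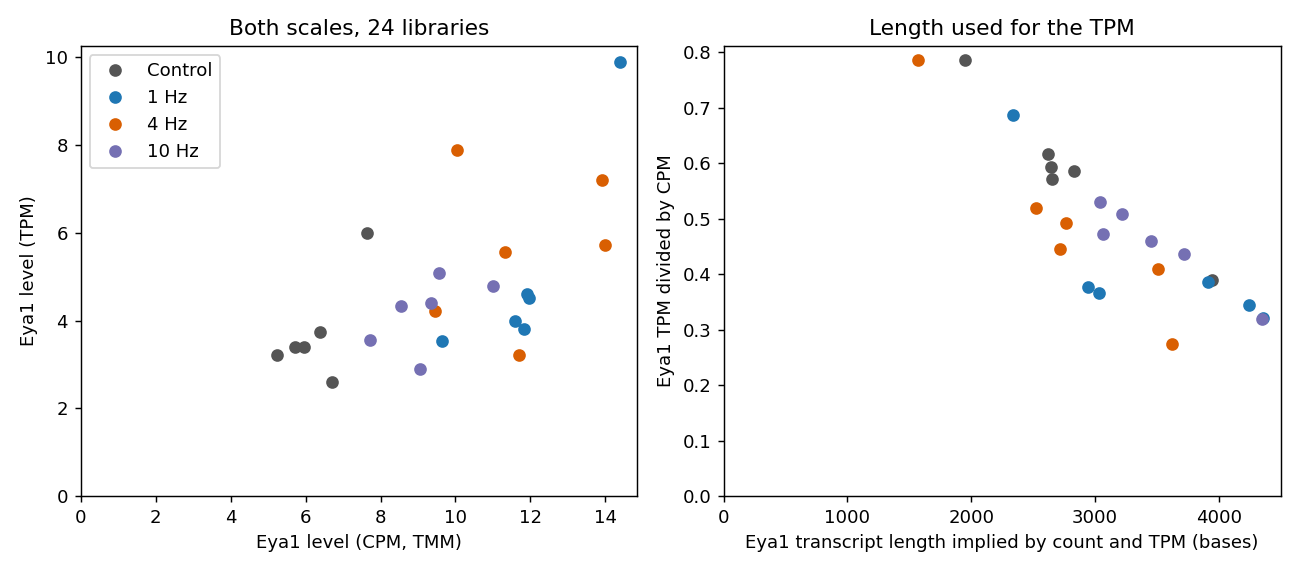
Left, level of Eya1 in TPM against CPM for the 24 libraries. Right, TPM divided by CPM against the transcript length implied by count and TPM, in bases, all on linear axes that start at 0. In CPM the stimulated libraries lie to the right of all controls, from 7.72 upward, whereas in TPM the groups overlap. In the right panel the ratio falls with implied length by construction, since that length is computed from count and TPM.

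Partners and regulators of these factors were looked at from a list of 13 cofactors, all tested, which holds the TLE corepressors, histone methyltransferase subunits and PAX7 interactors. At 1 Hz, 0 of the 13 were called higher and 2 lower, where 7.19% and 7.74% of all tested genes were, with a median log2(fold change) of -0.19 against 0.04 over all genes. At 4 Hz, 1 was called higher and 2 lower, where 12.8% and 12.3% of all tested genes were, and the median was -0.20. Nothing particular to the cofactors is read from these counts, and those at 4 Hz depend on the setting, with 0 called higher in 21 of 33 alternatives and 4 to 7 called lower in 20 of 33. At 10 Hz, 0 were called. Hira, the histone chaperone, fell by 0.84 on the log2 scale at 4 Hz (edgeR, adjusted p = 1.1e-05) and fell by 0.56 at 1 Hz (adjusted p = 0.00153). Sobp, a homologue of the fly sine oculis binding protein, fell by 0.77 at 1 Hz (edgeR, adjusted p = 0.00242) and fell by 0.65 at 4 Hz (adjusted p = 0.00596). Kdm6a, a histone demethylase, rose at 4 Hz by a log2(fold change) of 0.51 (edgeR, adjusted p = 8.4e-04).

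Of 10 genes known as PAX3 or PAX7 targets, 2 were called higher and 2 lower at 1 Hz, 3 and 3 at 4 Hz and 0 at 10 Hz, with medians of -0.14 and -0.11 at 1 and 4 Hz. Over all tested genes the shares called higher and lower were 7.19% and 7.74% at 1 Hz and 12.8% and 12.3% at 4 Hz. The 3 called lower at 4 Hz became 1 or 5 in 2 of 33 alternatives, those without control replicate 2 and without 4 Hz replicate 3. Myf5, the target most often named for PAX7, was at 12.6 CPM in the controls and 31.4, 28.3 and 17.7 CPM at 1, 4 and 10 Hz. It rose at 1 Hz by a log2(fold change) of 1.32 (SE 0.127, adjusted p = 2.7e-08 in edgeR) and at 4 Hz by 1.17 (SE 0.128, adjusted p = 9.2e-08). Spry1, an inhibitor of growth factor signalling used by quiescent satellite cells, rose by 0.98 at 1 Hz and 1.31 at 4 Hz (edgeR, adjusted p = 3.1e-06 and 2.2e-08). Myod1 fell by 1.42 and 1.75 on the log2 scale (edgeR, adjusted p = 2.5e-11 and 1.9e-13). Met, the receptor of hepatocyte growth factor, fell by 0.55 at 4 Hz (edgeR, adjusted p = 2.1e-04).

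Of 10 genes known as targets of sine oculis factors, 2 were called higher and 3 lower at both 1 and 4 Hz and 0 at 10 Hz, with medians of 0.01 and 0.05, beside 7.19% higher and 7.74% lower over all tested genes at 1 Hz and 12.8% and 12.3% at 4 Hz. Myog, whose promoter holds a MEF3 site bound by sine oculis factors, was at 561 CPM in the controls and 221, 203 and 487 CPM at 1, 4 and 10 Hz. It fell by 1.34 on the log2 scale at 1 Hz (SE 0.0730, adjusted p = 1.2e-12 in edgeR) and fell by 1.47 at 4 Hz (SE 0.0733, adjusted p = 1.5e-13). Gdnf, a neurotrophic factor under SIX2 control in the kidney, rose by 0.54 at 1 Hz and 0.85 at 4 Hz (edgeR, adjusted p = 0.0174 and 2.9e-04). The 2 called higher at 1 Hz, Myf5 and Gdnf, became 1 in 8 of 33 alternatives, 5 of which left out 1 library. Of these 2, Gdnf was the nearer to the limit of 0.5. Myf5 and Myod1 stand in both target lists.

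Of 22 other satellite cell genes listed, 20 were tested, 4 were called higher and 4 lower at 1 Hz, 4 and 5 at 4 Hz and 0 at 10 Hz. Myf5, Spry1, Cxcr4, Fgfr4 and Met also stand in the list of PAX targets. The shares of all tested genes called higher and lower were 7.19% and 7.74% at 1 Hz and 12.8% and 12.3% at 4 Hz. Cdh15, the M-cadherin of satellite cells and myoblasts, was at 143 ± 16.7 CPM in the controls and 66.8 ± 13.8 at 1 Hz (SD, n = 6 each), with a log2(fold change) of -1.10 (edgeR, adjusted p = 3.6e-08), and it fell by 1.12 at 4 Hz (adjusted p = 1.3e-08). At 10 Hz its log2(fold change) was -0.21 (edgeR, adjusted p = 0.635). Called higher at both 1 and 4 Hz were Myf5 and Spry1, given above, Hes1 (log2(fold change) 0.95 and 0.75) and Notch3 (0.54 and 0.62). Heyl was called lower at both, with -1.49 (SE 0.407) at 1 Hz and -2.02 (SE 0.443) at 4 Hz. So was Megf10, with -0.88 (SE 0.213) at 1 Hz and -1.002 (SE 0.217) at 4 Hz. The 5 called lower at 4 Hz became 3 without control replicate 2. The 4 called lower at 1 Hz became 2 with the filter of 50 counts in at least 6 libraries. The 4 called higher at 4 Hz became 2 on both TPM scales. The median over the list was 0.13 at 1 Hz and 0.19 at 4 Hz.

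Markers of other states and cell types gave the following values beside these results, and their part in them was not tested. Their counts stand beside shares of all tested genes of 7.19% called higher and 7.74% lower at 1 Hz, and 12.8% and 12.3% at 4 Hz. Of 10 myotube markers, 0 were called at 1 Hz and 1 at 4 Hz, Mylpf, a fast myosin light chain, which rose by 0.57 (edgeR, adjusted p = 0.00749). Mylpf lost this call in 3 of 33 alternatives, on both TPM scales and without 4 Hz replicate 3. The summed TPM of the myotube list had a median of 15001 in the controls and 14427, 15141 and 13605 at 1, 4 and 10 Hz. Of 6 myoblast markers, 1 was called higher and 2 lower at both 1 and 4 Hz. The calls were Myf5, higher, and Myod1 and Cdh15, lower, all given above from other lists. Of 12 proliferation genes, 1 was called higher at 1 Hz, Cdk1, and 1 higher and 5 lower at 4 Hz. The 1 higher at 4 Hz was also Cdk1, and 0 were in 20 of 33 alternatives, while the 5 lower became 3 or 0 in 2 of 33. Cdk1 rose by 0.62 and 0.51 at 1 and 4 Hz (edgeR, adjusted p = 3.5e-04 and 0.00150), and Ccna2 and Ccnb1, mitotic cyclins, fell by 1.40 and 1.06 at 4 Hz (edgeR, adjusted p = 0.00440 and 0.00806). The summed TPM of the proliferation list ran from 263 to 314 in the controls, 218 to 306 at 1 Hz and 189 to 275 at 4 Hz.

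Of the 5 endothelial markers 0 passed the filter, and their summed TPM was at most 0.961. The leukocyte marker Ptprc and the neuron markers Snap25 and Rbfox3 were at 0 TPM in every control library, and Cd68, which macrophages share with other cells, made up nearly all of the leukocyte sum. Of the 6 Schwann cell and neuron markers, Tubb3, a neuronal tubulin, fell by 0.82 and 0.81 at 1 and 4 Hz (edgeR, adjusted p = 3.4e-06 and 1.9e-06). The sum of that list ran from 59.5 to 86.1 TPM in the controls, 22.7 to 44.5 at 1 Hz and 23.2 to 42.4 at 4 Hz. Of 7 fibroblast markers, 5 were tested and 1, Col1a1, fell by 0.70 and 0.71 at 1 and 4 Hz (edgeR, adjusted p = 0.0208 and 0.0140). Dcn and Pdgfra went the other way without reaching the limit on fold change, Dcn with 0.39 and 0.43 (edgeR, adjusted p = 0.0188 and 0.00644) and Pdgfra with 0.28 and 0.36 (edgeR, adjusted p = 0.0412 and 0.00720). Col1a1 lost its call at 1 Hz in 2 of 33 alternatives, with only the 2 groups compared in the fit and without control replicate 2. Of 7 fat cell markers, 2 were tested. Pparg rose by 0.56 and 0.55 (edgeR, adjusted p = 0.00342 and 0.00263), Cebpa fell by 0.52 at 4 Hz (edgeR, adjusted p = 1.3e-04), and Adipoq, the defining fat cell hormone, had a mean of 0.0463 TPM in the controls. Cebpa lost its call at 4 Hz in 2 of 33 alternatives, with upper-quartile factors and without control replicate 1.

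For each tested gene the 3 genes with the most similar course over the 24 libraries were found by the mean absolute difference of log2 CPM, each relative to its own control mean. For Eya3 these were Zbed4, Usp37 and Cdon, a co-receptor that promotes myoblast differentiation, at mean differences of 0.0933, 0.101 and 0.102. For Pax7 they were Ahdc1, Bmper and Gper1, at 0.221, 0.221 and 0.229. For Six4 they were Cavin1, Hspd1 and Bace1, at 0.129, 0.130 and 0.135. For Eya1 they were Rassf5, F3 and Rora, at 0.174, 0.179 and 0.183. For Six5 they were Khnyn, Blm and Fbxo32, a muscle ubiquitin ligase, at 0.205, 0.236 and 0.237, and for Eya4 they were Ahcyl1, Uso1 and Cipc, at 0.0797, 0.0806 and 0.0819. None of the 8 genes was among the 3 nearest of another. On log2(TPM + 1), 1 of the 3 was found again for Eya3 (Zbed4) and for Eya4 (Cipc), and 0 for the other 4 genes, so these neighbours depend on the scale.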

How the data were processed

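RNA of 24 C2C12 tissues was sequenced after poly(A) selection. The labels say that low-input samples were ribodepleted instead, without naming them. The authors quantified reads with the nf-core/rnaseq pipeline (STAR and Salmon) on GRCm39 and deposited an estimated count per gene, not normalized, and a TPM per gene, scaled to 1000000 per library. The submitters' processing notes also name BWA 0.7.12-r1039 and bedtools 2.25.0.

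Estimated counts were rounded, filtered with filterByExpr (minimum count 10, minimum total 15), scaled by TMM and fitted in edgeR 4.0.16 (R 4.3.3) by a robust quasi-likelihood F test, in 1 fit of 24 libraries with a mean per condition. P-values were adjusted by Benjamini-Hochberg over all 13315 tested genes. CPM are TMM-scaled. Groups came from the sample titles, and the replicates are separate tissues of 1 line. The scripts were tested on simulated data. Depth of 8052369 to 18159144 counts limits genes such as Pax7 and Six5. The upper limit on the level of Pax3 and Six2 covers counting error only. SDs are taken across libraries and SEs come from the fits, so neither is limited to counting error.

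The 8 genes, the lists and the rule for named genes were chosen with earlier results of these data known. The rule names all 8, tested relatives (1 is not reported here), up to 2 called genes per direction of each list by smallest p (else its most abundant), and the 3 nearest genes of each. Some further list genes are named beside this rule. Known target lists are from general knowledge. Alternatives were RLE and upper-quartile factors, either no filter or one of 50 counts in at least 6 libraries, fits of just the 2 groups compared, a replicate block, DESeq2 1.42.0, limma 3.58.1 on log2(TPM + 1) and log2(TPM + 0.1) (genes reaching 1 TPM in 6 libraries), no fold limit and leaving out each library. Gene positions and overlaps are from GENCODE M39, in which 98.9% of identifiers were found. Lengths implied by count and TPM were scaled on 51 genes with a single transcript.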

Additional observations from a re-analysis of the deposited data

How the results depend on the processing

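Pax7 and Eya3 kept their direction and stayed past the criteria at 1 and 4 Hz under all 33 alternatives, with log2(fold change) from -1.75 to -0.80 for Pax7 and from -1.23 to -0.85 for Eya3 at 1 Hz. Six4 lost the call at 1 Hz in 1 of 33, without 1 Hz replicate 5 (-0.46). On log2(TPM + 1) and on log2(TPM + 0.1), 3 of the 8 genes were called at 1 Hz and 3 at 4 Hz instead of 5, since Eya1 (0.32 and 0.38 at 1 Hz, 0.47 and 0.57 at 4 Hz) and Six5 (0.29 and 0.49, 0.29 and 0.51) missed the criteria. Over all 13422 genes these scales called 198 and 234 higher and 1710 and 1950 lower at 1 Hz, and 333 and 386 higher and 3166 and 3487 lower at 4 Hz. At 10 Hz, 1 gene (Eya1, 0.54) was called with only the 2 groups compared in the fit and 1 (Eya1, 0.54) with the DESeq2 Wald test, and 0 otherwise. For 10 Hz against 1 Hz, 5 genes were called with no threshold on fold change, as were 3713 of all 13315 genes, Six4 was gained in 13 of 33 alternatives and Six5 lost in 13 of 32. Leaving out each library gave 4 to 5 called genes at 1 Hz, 5 at 4 Hz, 0 at 10 Hz, 2 to 4 for 10 Hz against 1 Hz and 4 for 10 Hz against 4 Hz. Over all genes it gave 678 to 1235 called higher and 931 to 1201 lower at 1 Hz, 1309 to 1867 and 1530 to 1805 at 4 Hz, and 1 to 2 and 1 to 16 at 10 Hz. For 10 Hz against 1 Hz it gave 631 to 1004 higher and 378 to 909 lower over all genes. For 10 Hz against 4 Hz these were 1329 to 1682 and 1059 to 1536. Six5 did not pass the strict filter. The cause of these differences was not tested.

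Correlations of same-numbered libraries, taken as deviations from the condition means, ran from -0.33 to 0.24. They were not compared with those of differently numbered libraries, so whether the numbers pair the samples was not tested. With the replicate block, 5 of the genes were called at 1 Hz, 5 at 4 Hz and 0 at 10 Hz, as without it. It also gave 3 for 10 Hz against 1 Hz and 4 for 10 Hz against 4 Hz, as without it. Over all 13315 genes the block called 861 higher and 1043 lower at 1 Hz, 1635 and 1649 at 4 Hz, and 1 and 2 at 10 Hz. For 10 Hz against 1 Hz it called 767 higher and 558 lower over all genes, and for 10 Hz against 4 Hz 1423 and 1337. Of 2574 recomputed counts of called list genes, 106 moved by over 1.5 times, mostly in cofactors and proliferation genes at 4 Hz. The others that moved in at least 4 of 33 alternatives were sine oculis targets called higher at 1 Hz (from 2 to 1, in 8), proliferation genes called higher at 1 Hz (from 1 to 0 or 2, in 6), PAX targets called lower at 1 Hz (from 2 to 1, in 4) and fat cell markers called higher at 1 and at 4 Hz (from 1 to 0, in 4 each). Depth limits Six5 and, at 1 and 4 Hz, Pax7.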
